A study of Mus musculus with 2 samples.

Results

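Mfap5/Dpt fibroblasts are connective-tissue cells of the developing mouse pancreas, picked out by the matrix genes Mfap5 and Dpt. They were studied here in 2 single-cell RNA libraries of C57BL/6 mouse pancreas at embryonic day 18.5. The knockout library came from a pancreas that the submitters call Dpy30∆P, an allele in which Dpy30, a core subunit of the complexes that methylate histone H3 at lysine 4, was deleted, and the control library came from a control pancreas of the same age and strain. Which Cre line and exons define the allele, and therefore which cells of the organ carry the deletion, is not given in the sources used here. Both pancreata were digested with trypsin for 20 min and loaded on a droplet device that captures the 3' ends of transcripts with unique molecular identifiers (UMIs), so that each count is 1 captured RNA molecule. The preparations differed in volume: cells were resuspended in 250 uL for the knockout library and in 500 uL for the control library.

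Members were barcodes with at least 500 detected genes, at most 10% mitochondrial UMIs and at least 20 UMIs of Col1a1, Col1a2 and Col3a1 together. Barcodes with more than 2 UMIs of pericyte genes, more than 1 of mesothelial genes or more than 2 of mitotic genes were left out. A member then held at least 4 UMIs of the sum of Mfap5, Krtdap, Cthrc1, Dpt, Clec3b and Col5a3, and at least 2 times its sum of Mfap4, Osr2, Cxcl1 and Slit2. This gave 320 knockout and 200 control fibroblasts, 520 in all, among 3257 and 2633 barcodes that passed the first 2 limits and among 839 knockout and 645 control non-cycling mesenchymal barcodes. The mesenchymal cells at the opposite end of these 2 sums were chosen by the mirror of the last step and are called Osr2/Mfap4 cells below. They numbered 240 in the knockout library and 211 in the control library. A further 279 knockout and 234 control barcodes met neither rule and are called other non-cycling mesenchymal cells. The values that chose the members are given as a description of them.

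Fibroblasts make and organise the collagen fibres, microfibrils and proteoglycans that hold a tissue together, and they send growth factors to the cells around them. In mice, a population rich in Pi16, Dpp4, Ly6a and Cd34 lies in the adventitia of vessels and in the loose tissue around organs, and Mfap5, Dpt and Clec3b are among the genes by which it is usually recognised. The mesenchyme of the fetal pancreas supports the growth of the epithelium, and is less uniform than its shared collagens make it appear.

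Each group is 1 library from 1 pancreas, so no test across animals was possible, and every interval below is a 95% interval that covers counting error only. The members held 1824499 UMIs in the knockout library and 1235444 in the control library, with medians of 5474.5 and 6034.5 UMIs a cell. Of all barcodes 27 were found in both libraries, and 0 of them were members. The knockout pancreas was female and the control pancreas male by their transcripts: Xist gave 4082 UMIs in knockout fibroblasts and 0 in control fibroblasts, and Ddx3y gave 0 and 105. Sex, genotype and library cannot be told apart in any difference between the groups. RNA of other pancreatic cells was more abundant in the knockout members: 12 acinar genes summed to 4311 CPM (UMIs of a gene scaled to 1000000 UMIs of the class) in knockout fibroblasts and 496 CPM in control fibroblasts, 9 erythroid genes to 7006 and 745.5 CPM, and 14 endocrine genes to 2988 and 795 CPM. In the knockout library 13 members, and in the control library 2, held at least 50 UMIs of these genes and of ductal genes, and 1 knockout barcode held 3411 of the 3542 Ins2 UMIs among knockout members. Without these members the ratios of knockout over control were 0.441 for Krtdap, 0.256 for Idi1, 0.232 for Thy1 and 2.96 for Crabp1, close to those of all members. Those of insulin and elastase genes, given among the flagged results, changed much. Of 289 genes at least 1.5-fold higher in all members, 250 stayed past 1.5-fold and 279 above 1. Of 361 lower ones, 307 stayed past 1.5-fold and 361 below 1. In Osr2/Mfap4 cells the acinar genes summed to 4224 CPM in the knockout library and 4454 CPM in the control library. Endothelial markers were low in both (139 and 156 CPM), as were macrophage markers (19.7 and 16.2 CPM), and no member held 10 or more UMIs of either list.

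The label was checked against its markers. Mfap5, which encodes a glycoprotein of fibrillin microfibrils (GRCm38 chr6:122505845-122529290, plus strand), stood at 852 CPM in knockout fibroblasts and 1073 CPM in control fibroblasts. That was 8.65-fold over Osr2/Mfap4 cells in the knockout library and 10.2-fold in the control library. Dpt, the gene of the collagen-binding protein dermatopontin (chr1:164796644-164824266, plus strand), stood at 219 and 254 CPM, which was 4.70-fold and 4.41-fold over the Osr2/Mfap4 cells. Clec3b, which encodes the plasminogen-binding protein tetranectin, stood at 280.1 and 415 CPM, and Col5a3, a chain of the minor fibrillar collagen V, at 249.9 and 333 CPM. Cthrc1, a secreted collagen triple helix repeat protein (chr15:39076932-39087121, plus strand), stood at 539 and 348 CPM. These genes, with Krtdap, are the ones the members were chosen by, so their separation from the Osr2/Mfap4 cells is set by the choice.

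Agtr2 and Postn, the other 2 markers given for these cells, took no part in the choice. Agtr2 encodes the type 2 angiotensin receptor (chrX:21484544-21489164, plus strand) and is high in fetal mesenchyme. It stood at 623 CPM in knockout fibroblasts and 505 CPM in control fibroblasts, and was higher than in Osr2/Mfap4 cells by 2.39-fold in the knockout library (interval 2.12 to 2.70) and by 1.72-fold in the control library (1.502 to 1.962). Postn encodes periostin, a matrix protein that binds collagen and integrins (chr3:54361109-54391037, plus strand). It stood at 791 and 938 CPM, higher than in Osr2/Mfap4 cells by 3.23-fold in the knockout library (2.86 to 3.65) and by 4.01-fold in the control library (3.51 to 4.59). Both genes were therefore higher in the members of both libraries, Agtr2 by less than 2-fold in the control library, and neither was restricted to the members. They were given with the label, and the members were chosen with earlier results of these data known, so this is a description and not independent support.

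Shares of positive cells were compared after thinning every cell to 2000 UMIs, which left out 2 knockout members and 0 control members. At that depth Mfap5 was detected in 76.4% of knockout fibroblasts and 78.5% of control fibroblasts, against 18.8% and 18.1% of Osr2/Mfap4 cells. Without thinning the members' shares were 93.8% and 92.5%. In endothelial cells, which should lack the gene and had medians of 7466 and 7981 UMIs, it was found in 0 of 116 knockout and 0 of 177 control cells, which allows shares of cells with a UMI of up to 2.59% and 1.69%, taking 3 cells of the total; this does not limit the share of cells that express it. Postn was detected in 74.5% of knockout and 71.5% of control fibroblasts, with 1.72% and 0% of endothelial cells. Agtr2 was detected in 66.7% and 53% of them, with 0% of endothelial cells in both libraries.

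**Figure D1:**
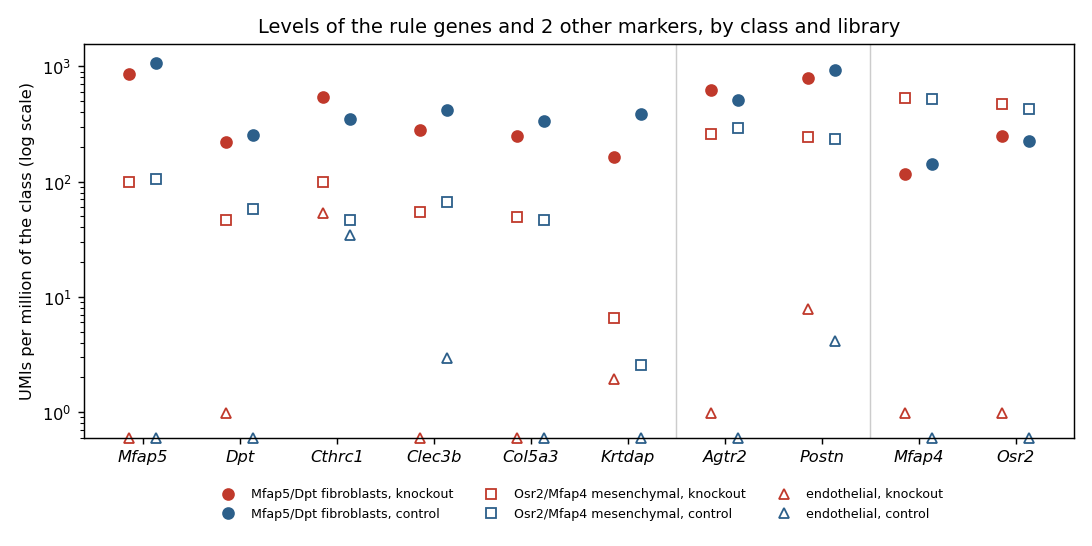
Level of the 6 genes of the choice, of Agtr2 and Postn, and of Mfap4 and Osr2, in CPM on a log axis, with knockout values left of control values; filled circles are Mfap5/Dpt fibroblasts, open squares Osr2/Mfap4 cells and open triangles endothelial cells, and a value of 0 is drawn at the lower edge. Each point is 1 library; Agtr2 and Postn, which took no part in the choice, are higher in the fibroblasts of both libraries, by 1.72-fold to 4.01-fold.

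The limit drawn through the mesenchyme was not a gap in the data. Of the members, 14 knockout and 9 control cells held exactly 4 UMIs of the choosing genes, and their Postn level was 743 and 403 CPM. Just outside the limit, 12 knockout and 8 control cells with 3 UMIs had 176 and 431 CPM of Postn, from few UMIs. At the other limit, 43 knockout and 23 control members held 2 times their opposing sum or 1 UMI more, with 552 and 485 CPM of Postn. Just outside it, 32 knockout and 29 control cells had 673 and 479 CPM.

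Beyond the genes of the choice, many genes of adventitial fibroblasts were higher in the fibroblasts as a class than in the Osr2/Mfap4 cells. Over all genes with at least 50 UMIs in the 2 classes in each library, 175 of 4956 (3.53%) were at least 2-fold over the Osr2/Mfap4 cells in both libraries and 34 (0.686%) were at least 2-fold below. Of 30 adventitial fibroblast genes, 21 could be read this way. Of these 21, 16 were at least 2-fold over and 0 were below, beside 3.53% and 0.686% of all genes. The list holds no gene of the choice, but it was chosen with earlier results of these data known. Mfap5, Dpt and Clec3b, which helped to split the 2 classes, also mark adventitial fibroblasts, so the count is a description and not independent support. Pi16, a secreted peptidase inhibitor that marks adventitial fibroblasts in mice (chr17:29317680-29330593), was 8.16-fold over Osr2/Mfap4 cells in the knockout library (3.77 to 21.0) and 93.5-fold in the control library, where those cells held 1 UMI (16.4 to 3731). Ly6a, the surface antigen Sca-1 (chr15:74994877-74998031, minus strand), was 19.5-fold over in the knockout library (7.41 to 73.1) and 56.8-fold in the control library (15.4 to 474). Igfbp6, a binding protein with preference for IGF2, was 10.8-fold and 27.4-fold over. Sema3c, a secreted guidance semaphorin, was 7.31-fold and 7.77-fold over. Cd55, which protects cells from complement, was 6.91-fold and 5.48-fold over. The control values of Pi16 and Ly6a exceeded the knockout ones, but rest on 1 and 2 UMIs in the control Osr2/Mfap4 cells.

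The 16 higher genes named by the rule also held secreted and matrix proteins. Fn1, fibronectin, stood at 151 CPM in knockout and 192 CPM in control fibroblasts, 14.8-fold and 12.6-fold over Osr2/Mfap4 cells. Nov, a matricellular protein of the CCN family, stood at 75.1 and 158 CPM, which was 12.9-fold and 8.09-fold over. Bmp7, a bone morphogenetic protein, stood at 58.7 and 54.2 CPM. It was 20.1-fold over in the knockout library (7.63 to 75.1), and in the control library, where Osr2/Mfap4 cells had 0 UMIs, at least 21.3-fold over, with a floor of 3 counts per library. Igfbp5 stood at 514 and 499 CPM, 5.30-fold and 10.5-fold over, and Anxa1, a phospholipid-binding regulator of inflammation, at 88.8 and 149.7 CPM, 12.2-fold and 6.54-fold over.

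Smpd3, a neutral sphingomyelinase needed for bone and cartilage mineralisation in mice, was 13.1-fold and 15.1-fold over the Osr2/Mfap4 cells. Pdpn, the mucin-like surface protein podoplanin, was 10.8-fold and 7.76-fold over. Gap43, a growth cone protein, stood at 209 CPM in knockout and 204 CPM in control fibroblasts, 6.22-fold and 18.5-fold over. Stmn2 and Stmn4, stathmins that destabilise microtubules and are best known from neurons, were also higher: Stmn2 stood at 156 and 135 CPM, 6.69-fold and 5.49-fold over, and Stmn4 at 29.0 and 51.0 CPM, at least 13.3-fold and at least 20.0-fold over. Tmeff2, a transmembrane protein with follistatin domains, stood at 78.4 and 89.0 CPM, 10.7-fold and 52.5-fold over, the second from 2 UMIs in control Osr2/Mfap4 cells. The 12 Schwann and neural markers, of which Gap43 is one, summed to 278 CPM in knockout and 269.5 CPM in control fibroblasts, against 91.2 and 67.0 CPM in Osr2/Mfap4 cells. A knockout member held 0 to 13 of their UMIs and a control member 0 to 14, with 2 members of each library at 10 or more. Of the 12, 8 were detected in knockout and 5 in control fibroblasts, Gap43 gave 381 of 508 and 252 of 333 UMIs, and Sox10 and Foxd3 were among those at 0 in both. Their part in the result was not tested.

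Among the 34 genes that were lower in the fibroblasts, the 10 named by the fixed rule held several matrix and signalling genes. Serpine2, a protease inhibitor of the extracellular space, stood at 111 CPM in knockout and 84.99 CPM in control fibroblasts, 4.58-fold and 4.57-fold below the Osr2/Mfap4 cells. Gas6, the ligand of the TAM receptors, was 4.06-fold and 5.96-fold below, and Spon1, a secreted adhesion protein, 8.98-fold and 4.72-fold below. Mgp, the matrix Gla protein that inhibits calcification, was 3.02-fold and 4.12-fold below, and Bgn, the proteoglycan biglycan on chromosome X, 2.69-fold and 2.36-fold below. Sox6, a transcription factor, was 4.04-fold and 3.88-fold below. Crispld2, Sapcd1, Chodl and Zfos1 were lower by 2.04-fold to 10.0-fold.

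**Figure D2:**
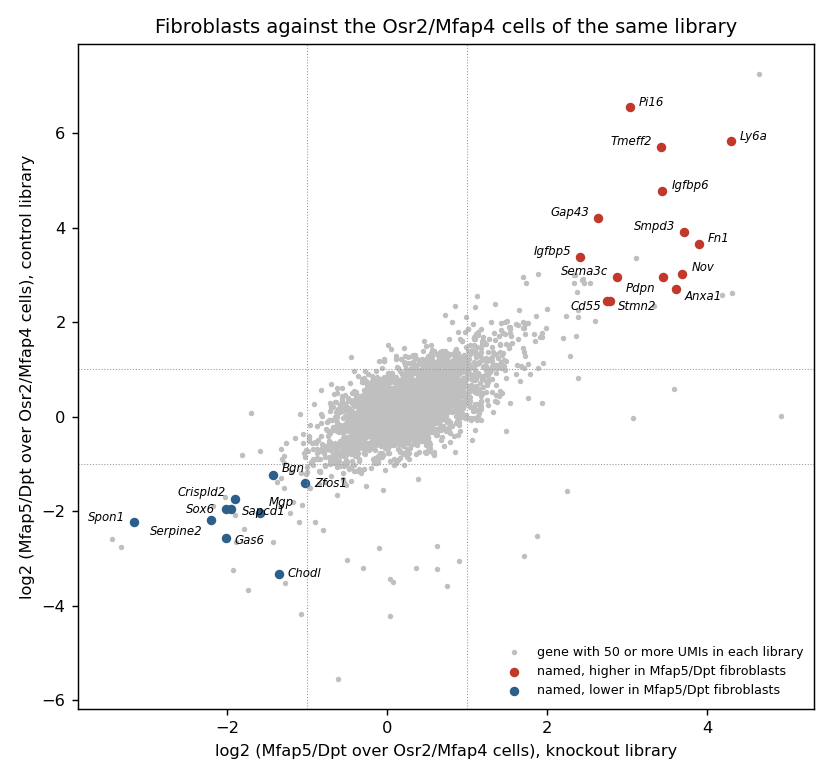
Log2 ratio of CPM in Mfap5/Dpt fibroblasts over Osr2/Mfap4 cells, in the knockout library (x axis) and in the control library (y axis), for all genes tested (grey) with the 24 named genes that have a UMI in both classes (red higher, blue lower); dotted lines mark 2-fold. The named genes lie in the upper right and lower left corners, so that their direction is the same in both libraries; Stmn4 and Bmp7 are not drawn because a library of Osr2/Mfap4 cells had 0 UMIs.

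Matrix genes also differed between the 2 kinds of mesenchyme. Of 7 fibrillar collagen genes that could be read, 3 were at least 2-fold over the Osr2/Mfap4 cells in both libraries, beside 3.53% of all genes. They were the choosing gene Col5a3, Col1a1 (2.22-fold and 2.45-fold) and Col3a1 (2.02-fold and 2.35-fold). The last 2 served in the collagen limit set for both classes. Of 6 small leucine-rich proteoglycans, 4 were over and 1 below, and of 18 matricellular genes, 7 were over and 1 below. The 7 include the choosing gene Cthrc1, whose difference is set by the choice. Of 20 tested genes for collagen folding and processing, 0 of the 19 that could be read in both classes passed 2-fold. Among transcription factors of the mesenchyme, 2 of 33 were at least 2-fold over and 0 below, beside 3.53% and 0.686% of all genes.

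The fibroblasts formed 9.82% of knockout barcodes (8.82 to 10.9) and 7.596% of control barcodes (6.61 to 8.67), a ratio of 1.29 (1.09 to 1.53). Among non-cycling mesenchymal barcodes alone their shares were 38.1% (34.8 to 41.5) in the knockout library and 31.0% (27.5 to 34.7) in the control library, a ratio of 1.23 (1.07 to 1.42). Osr2/Mfap4 cells formed 7.37% and 8.01% of barcodes, a ratio of 0.920 (0.770 to 1.10). Cthrc1, a gene of the choice, was itself higher in the knockout library. Chosen without Cthrc1, the fibroblasts numbered 252 in the knockout library and 182 in the control library, against 320 and 200. Without 1 of the other choosing genes they numbered 222 to 312 and 146 to 193. Ratios of shares were not computed for these choices. Without Cthrc1 the knockout number fell by more in proportion than the control number, so both ratios would be smaller than the 1.29 and 1.23 above. The shares come from 1 dissociation each, and the spread between pancreata was not measured.

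Within the fibroblasts, 5970 genes had at least 50 UMIs over both libraries. Of these, 289 (4.84%) were at least 1.5-fold higher in knockout fibroblasts and 361 (6.05%) at least 1.5-fold lower, and the median log2 ratio of all was -0.015. In Osr2/Mfap4 cells 236 of 4909 genes (4.81%) were higher and 262 (5.34%) lower by the same measure. The genes named below are the 14 higher and 14 lower ones whose interval lay farthest from 1.

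Many of the 14 named lower genes belong to cholesterol synthesis. Idi1, an isopentenyl diphosphate isomerase of the mevalonate pathway (chr13:8885501-8892451, plus strand), gave 51 UMIs in knockout fibroblasts and 138 in control fibroblasts. These are 28.0 and 112 CPM, 3.996-fold lower in knockout fibroblasts (ratio 0.250, 0.178 to 0.347). Fdps, which makes farnesyl diphosphate, stood at 50.4 and 176 CPM, 3.48-fold lower. Msmo1, Sqle and Cyp51, oxygenases of the later sterol steps, were 3.35-fold, 2.89-fold and 2.87-fold lower. Srebf2, the transcription factor that drives these genes, was 3.09-fold lower, and Insig1, which holds its activation back and is itself one of its targets, 2.59-fold lower.

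Because of these genes, a list of 28 genes for sterol synthesis and uptake was drawn up after their values had been seen, and it serves as a description. Of the 28, 23 had at least 50 UMIs, 22 of those had a ratio under 1, 21 were at least 1.5-fold lower and 0 were higher, with a median log2 ratio of -1.39. Of all genes 6.05% were lower to that degree, and their median was -0.015. The 21 include Hmgcs1, the synthase at the start of the pathway, with 173 UMIs in knockout and 234 in control fibroblasts, or 94.8 and 189 CPM, 2.00-fold lower. Summed over the list, a knockout fibroblast held a median of 2 UMIs (0 to 42) and a control fibroblast 8 (0 to 65). No UMI of the list was found in 56 knockout fibroblasts (17.5%) and in 8 control fibroblasts (4%).

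The lower sterol genes were not particular to the fibroblasts. Summed over the list, fibroblasts held 737 CPM in the knockout library and 1908 CPM in the control library, 2.59-fold lower, and Osr2/Mfap4 cells 469.6 and 1216 CPM, also 2.59-fold lower. Other non-cycling mesenchymal cells were 2.88-fold lower and cycling mesenchymal cells 1.72-fold lower. Pericytes and smooth muscle cells were 1.87-fold lower, mesothelial cells 1.81-fold and epithelial cells 1.74-fold, and macrophages 1.496-fold. In epithelial cells the median log2 ratio of all genes was itself -0.24 and 24.4% of genes were at least 1.5-fold lower, against 9.55% to 13.9% in the other 8 classes, so the epithelial value is not on the same footing. Endothelial cells were least apart, with 645 CPM in the knockout library and 773 CPM in the control library, 1.198-fold lower. All 9 classes were lower in the knockout library by this sum. A list of 18 fatty acid synthesis genes, also added after values had been seen, held 11 tested genes in the fibroblasts, of which 6 were at least 1.5-fold lower and 0 higher, with a median log2 ratio of -0.70. Scd2, a desaturase and the most abundant of them, stood at 244.5 CPM in knockout and 397 CPM in control fibroblasts, 1.62-fold lower, and Fasn, the fatty acid synthase, at 36.7 and 64.8 CPM.

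**Figure D3:**
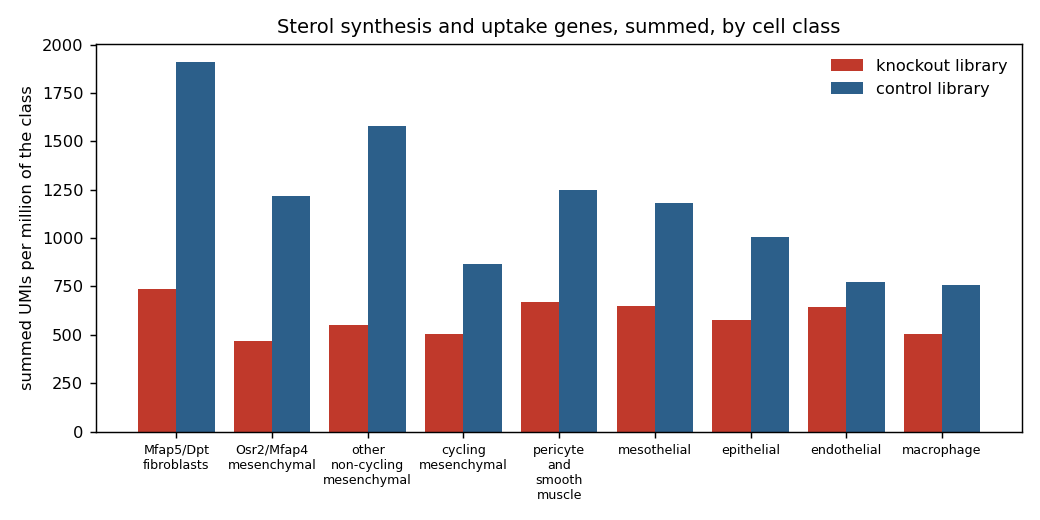
Summed level of the 28 sterol synthesis and uptake genes in CPM, in each of 9 cell classes, with knockout (left bar) and control (right bar); each bar is 1 library, so there are no error bars for animals. The sum is lower in the knockout library in all 9 classes, by 2.59-fold in Mfap5/Dpt fibroblasts and by 1.198-fold in endothelial cells.

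The sterol genes are switched on by SREBP proteins, which bind the sterol regulatory element, one form of which reads TCACNCCAC. RefSeq windows of 250 bases before the start site (GRCm38.p6) were at hand for 19 of the 28 genes, 23 windows in all, and this string was found, on either strand, in 1 of the 23, against 1.05% of all 32851 windows. It belongs to Hmgcs1, whose window (chr13:119690101-119690350, plus strand) is shown with the match in capitals, 137 bases before the start site, because its gene is among those that were lower.
Hmgcs1: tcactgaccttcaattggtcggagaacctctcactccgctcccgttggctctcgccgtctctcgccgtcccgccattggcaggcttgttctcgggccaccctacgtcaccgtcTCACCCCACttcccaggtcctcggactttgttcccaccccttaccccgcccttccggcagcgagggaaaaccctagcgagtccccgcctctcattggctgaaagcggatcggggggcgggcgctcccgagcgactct
A match describes letters in the window and is not a measure of binding.

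The genes of the choice differed between the libraries in both directions. Krtdap, which in mouse epidermis encodes a secreted protein of differentiating keratinocytes (chr7:30787896-30791097, plus strand), gave 300 UMIs in knockout fibroblasts and 479 in control fibroblasts. These are 164 and 388 CPM, 2.36-fold lower in knockout fibroblasts (ratio 0.424, 0.366 to 0.491). It was detected in 19.2% of knockout and 40.5% of control fibroblasts at 2000 UMIs, against 0.833% and 0.476% of Osr2/Mfap4 cells and 0% of endothelial cells in both libraries. Of 10 keratinocyte markers, 5 were detected in each library; Krtdap gave 300 of their 353 UMIs in knockout and 479 of 514 in control fibroblasts. Krt10 stood at 23.6 and 23.5 CPM, and Krt5, Krt14, Krt15 and Krt1 were at 0 in both libraries. Summed, the list stood at 193.5 and 416 CPM, against 36.5 and 35.6 CPM in Osr2/Mfap4 cells, and a member held 0 to 12 and 0 to 15 of its UMIs. Since Krtdap helps to choose the cells, it was read again in cells chosen with the other 5 genes, and stood at 152 and 361 CPM (ratio 0.422, 0.361 to 0.493). In other non-cycling mesenchymal cells it stood at 14.2 and 57.4 CPM, and in cycling ones at 105 and 93.2 CPM.

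Cthrc1 was the choosing gene that was higher. It gave 984 UMIs in knockout fibroblasts and 430 in control fibroblasts, a ratio of 1.55 (1.38 to 1.74), and in cells chosen without it the ratio was 1.48 (1.30 to 1.68), just under the 1.5-fold used here. Its ratio in Osr2/Mfap4 cells was 2.14. Mfap5 was lower in knockout fibroblasts, with a ratio of 0.794 (0.737 to 0.855), and 0.722 in cells chosen without it, as was Clec3b with 0.674 either way. Agtr2 had a ratio of 1.23 (1.12 to 1.36) and Postn of 0.843 (0.780 to 0.912), both under 1.5-fold in size. By the sub-clusters described below, Postn was lower in knockout cells of sub-cluster 1 (0.792, 0.707 to 0.887) but had ratios of 1.17, 1.32 and 1.09 in sub-clusters 0, 2 and 3. Mfap5 likewise had 0.811 in sub-cluster 1 (0.729 to 0.901) and 0.990, 1.10 and 1.21 in the others.

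The windows of the marker genes were searched for the TATA box TATAAA, which was found on either strand in 12.4% of all windows. Of the 6 choosing genes with Agtr2 and Postn, 5 had a window, and 2 of their 6 windows held the string, those of Krtdap and Postn; both are shown because they are the marker genes with the string near the start site, in capitals, 30 and 26 bases before it. The window of Krtdap is chr7:30787655-30787904 and that of the downstream start of Postn chr3:54360857-54361106, both on the plus strand.
Krtdap: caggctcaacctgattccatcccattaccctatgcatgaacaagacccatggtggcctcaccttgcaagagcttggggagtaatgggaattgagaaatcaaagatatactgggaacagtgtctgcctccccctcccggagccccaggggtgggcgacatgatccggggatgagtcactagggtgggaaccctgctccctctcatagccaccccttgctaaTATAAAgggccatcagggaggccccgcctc
Postn: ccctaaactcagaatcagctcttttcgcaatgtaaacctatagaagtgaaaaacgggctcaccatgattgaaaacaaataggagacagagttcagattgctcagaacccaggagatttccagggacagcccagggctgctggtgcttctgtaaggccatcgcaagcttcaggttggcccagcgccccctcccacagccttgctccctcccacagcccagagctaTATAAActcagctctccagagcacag

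The lower genes outside the sterol pathway included Thy1 and Pdpn, which are surface proteins of fibroblasts. Thy1, a surface antigen used to sort fibroblasts (chr9:44043384-44048579, plus strand), gave 30 UMIs in knockout fibroblasts and 84 in control fibroblasts, or 16.4 and 68.0 CPM (ratio 0.242, 0.154 to 0.371). Its ratio in Osr2/Mfap4 cells was 0.536, and the ratio in fibroblasts over that was 0.451 (0.260 to 0.783). Pdpn gave 101 and 179 UMIs, or 55.4 and 145 CPM (ratio 0.382, 0.296 to 0.490), and its ratio in Osr2/Mfap4 cells was 0.274. Smpd3 gave 87 and 190 UMIs, or 47.7 and 154 CPM (ratio 0.310, 0.238 to 0.402). Pcsk6, a proprotein convertase of the extracellular space, stood at 9.87 and 39.7 CPM, 4.02-fold lower, and Akr1e1, an aldo-keto reductase, at 8.77 and 34.0 CPM, 3.88-fold lower.

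Among the higher genes were secreted regulators of WNT signalling and a retinoid-binding protein. Crabp1, which binds retinoic acid in the cytoplasm (chr9:54764748-54773110, plus strand), gave 274 UMIs in knockout fibroblasts and 66 in control fibroblasts, or 150.2 and 53.4 CPM (ratio 2.81, 2.14 to 3.74). It was detected in 20.8% of knockout and 9.5% of control fibroblasts at 2000 UMIs, and in 0% of endothelial cells. Its ratio was 3.64 in Osr2/Mfap4 cells, so the difference was shared with the rest of the mesenchyme: it stood at 97.1 and 35.4 CPM in other non-cycling mesenchymal cells and at 132 and 37.0 CPM in cycling ones. Rspo3, an R-spondin that strengthens WNT signals, gave 140 and 45 UMIs, with a ratio of 2.11 (1.496 to 3.02) in fibroblasts and 1.09 in Osr2/Mfap4 cells. The fibroblast ratio over the other was 1.94 (1.15 to 3.29). Sfrp4, a secreted WNT antagonist, stood at 25.8 and 8.90 CPM (ratio 2.89, 1.48 to 6.19).

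Several other named genes were higher in knockout fibroblasts. Col23a1, a transmembrane collagen, stood at 51.0 CPM in knockout fibroblasts and 19.4 CPM in control fibroblasts, a ratio of 2.62. Csrp2, a LIM protein of mesenchymal cells, stood at 738 and 470.3 CPM (ratio 1.57, 1.42 to 1.73), and its ratio was 1.73 in Osr2/Mfap4 cells. Chodl, a membrane lectin, stood at 29.6 and 5.67 CPM; its ratio of 5.22 (2.37 to 13.6) exceeded the 1.33 of Osr2/Mfap4 cells by 3.91-fold (1.68 to 9.11). Pdia5, a disulphide isomerase, Gyg, the primer of glycogen synthesis, and Zfp318, a zinc finger protein, had ratios of 2.55, 2.26 and 2.26, each more than 2-fold above their ratio in Osr2/Mfap4 cells. Fibin, a secreted protein, had a ratio of 2.34, and Pbdc1, on chromosome X, of 2.11. Hddc3, a hydrolase, and Cap1, an actin regulator, had ratios of 7.04 and 2.15 in fibroblasts and were higher in the knockout library in all 9 cell classes, by 2.66-fold to 10.4-fold and by 1.51-fold to 3.54-fold.

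**Figure D4:**
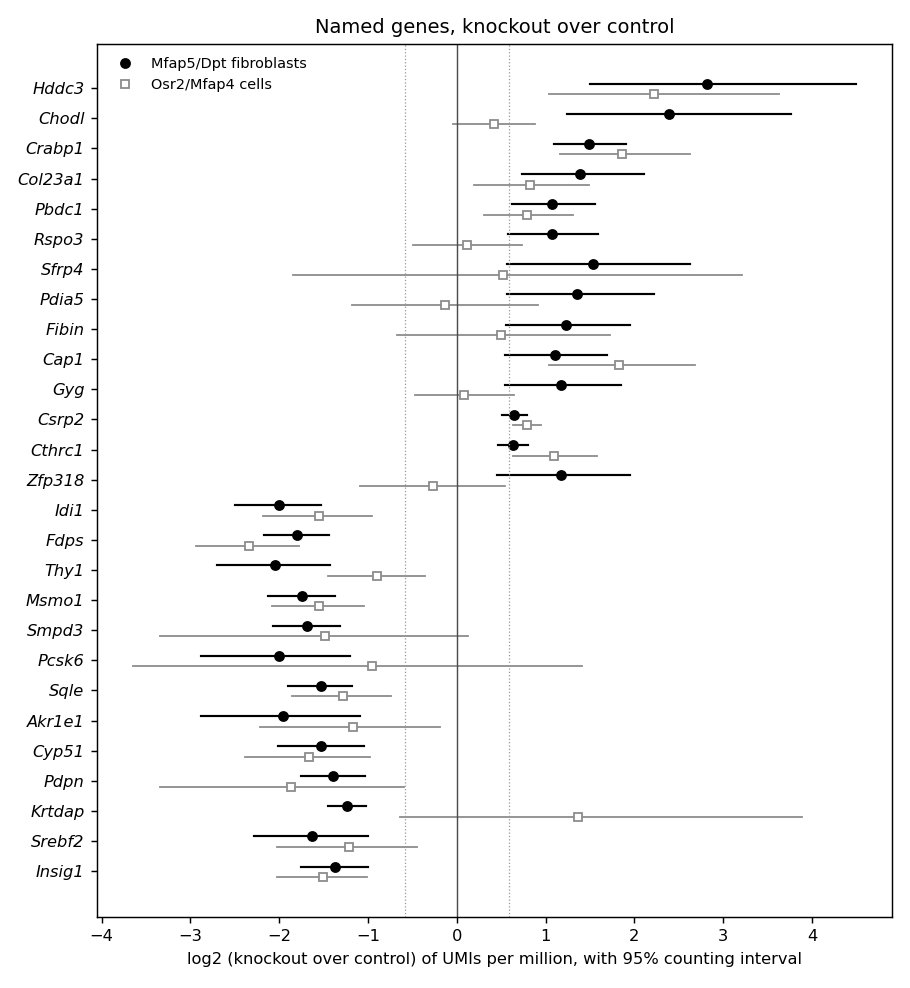
Log2 ratio of knockout over control for 27 of the 28 named genes, with 95% counting intervals, in Mfap5/Dpt fibroblasts (black circles) and in Osr2/Mfap4 cells (grey open squares); dotted lines mark 1.5-fold. The sterol genes, Thy1, Pdpn and Krtdap lie left of the lines in the fibroblasts and Crabp1, Cthrc1 and Rspo3 right of them, and the Osr2/Mfap4 value of Rspo3 is near 0.

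Genes of the adventitial list tended to be lower in knockout fibroblasts, most of them by little. Of 22 tested, 19 had a ratio under 1, 5 were at least 1.5-fold lower and 0 higher, beside 6.05% and 4.84% of all genes, with a median log2 ratio of -0.35. In Osr2/Mfap4 cells, 11 of the list could be tested and their median was 0.00. Pi16, Ly6a and Smpd3 had too few UMIs there to be among the 11. The 2 medians rest on unlike sets of genes and cannot be compared. Pi16 gave 76 UMIs in knockout fibroblasts and 98 in control fibroblasts, or 41.7 and 79.3 CPM (ratio 0.525, 0.384 to 0.716). Ly6a stood at 57.0 and 96.3 CPM (0.592, 0.450 to 0.776), Anxa3, another annexin, at 63.6 and 96.3 CPM (0.660), and Gfpt2, an enzyme of hexosamine synthesis, at 20.3 and 51.0 CPM (0.398). Smpd3, given above, is the fifth. Igfbp6 had a ratio of 0.679 and Sema3c of 0.726. Dpp4, Cd34, Cd248 and Gsn differed less, with 36.7 and 38.9, 395 and 468, 309.7 and 363, and 820.5 and 837 CPM, and Cd55 had a ratio of 1.25 (1.02 to 1.52). The median of the list was -0.10 within sub-cluster 1, which leads with Pi16 and Ly6a and is described below, and -0.21 among the remaining members; there Ly6a had a log2 ratio of 0.37.

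Genes for the bulk of the matrix differed little. All 7 fibrillar collagen genes tested had a ratio under 1 and 0 of them reached 1.5-fold, with a median log2 ratio of -0.18. Col1a1 stood at 5029.9 CPM in knockout and 5781 CPM in control fibroblasts, Col1a2 at 4793 and 5391 CPM, and Col3a1 at 5769 and 6549 CPM. Of 17 genes of elastic fibres and microfibrils, 1 was at least 1.5-fold lower (Loxl2, a lysyl oxidase, at 111 and 168 CPM) and 0 higher; Fbn1, fibrillin-1, had a ratio of 0.693. Of 8 genes of hyaluronan and versican, 1 was lower, Vcan itself, at 291 and 467 CPM. Of 6 small leucine-rich proteoglycans, 5 had a ratio under 1, 1 was at least 1.5-fold lower and 0 higher, with a median log2 ratio of -0.27. Dcn, the proteoglycan decorin, went the other way, at 2566 and 2319.8 CPM. Of 17 matricellular genes, 1 was higher, Cthrc1, and 2 lower, Nov at 0.476 and Nid1 at 0.656. Beside the 10.9% of all genes past 1.5-fold in either direction, these shares are of the same order, from lists of few genes.

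Signalling lists were split, and each rests on few genes, beside the 4.84% of all genes that were higher and the 6.05% that were lower. Of 15 tested WNT genes, 3 were at least 1.5-fold higher in knockout fibroblasts and 1 lower: Wnt4, a ligand, stood at 27.4 CPM in knockout and 11.3 CPM in control fibroblasts (2.42, 1.32 to 4.74), beside Rspo3 and Sfrp4, and Dkk3 was lower. Of 18 genes of TGF-beta and BMP signalling, 3 were higher and 2 lower. Among the higher ones were Id1 and Id2, targets of BMP signals, at 49.3 and 28.3 CPM and at 55.4 and 32.4 CPM. The lower ones were the ligand Tgfb2, at 54.8 and 84.99 CPM, and the co-receptor Eng, at 28.5 and 50.2 CPM. Of 9 retinoid genes, Crabp1 and Rbp4, the retinol carrier, were higher, Rbp4 at 78.4 and 32.4 CPM, and 0 lower. Of 13 chemokines and cytokines, 3 were lower and 0 higher, among them Il33, an alarmin, at 26.3 and 44.5 CPM and Csf1, the growth factor of macrophages, at 23.6 and 46.9 CPM. Of 15 genes of FGF, PDGF and hedgehog signalling, 1 was lower, Spry2, an inhibitor of receptor tyrosine kinase signals, at 63.0 and 115 CPM.

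Of 21 tested hypoxia and glycolysis genes, 20 had a ratio under 1 and 3 were at least 1.5-fold lower, with a median log2 ratio of -0.27, beside 6.05% of all genes lower and 4.84% higher. Slc16a3, a lactate carrier, stood at 23.6 CPM in knockout and 59.1 CPM in control fibroblasts. Of 29 immediate early genes, which dissociation can induce, 1 was higher and 1 lower, with a median of 0.12, and Fos had a ratio of 1.28. Of 35 transcription factors of the mesenchyme, 0 were higher and 1 lower. Of 8 adipogenic genes, 0 were higher and 2 lower, among them Lpl, lipoprotein lipase, at 84.4 and 169 CPM.

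Dpy30, the targeted gene, gave 156 UMIs in knockout fibroblasts and 81 in control fibroblasts, or 85.5 and 65.6 CPM, giving a ratio of 1.30 (0.991 to 1.73). Where the deleted exons lie relative to the 3' end that was counted is not known from the labels, so the tag does not show whether the fibroblasts carried the deletion. Of 16 tested members of the complexes that methylate histone H3 at lysine 4, 1 was at least 1.5-fold higher, Setd1b, a methyltransferase, at 31.2 and 20.2 CPM, and 0 lower, which is near the 4.84% and 6.05% of all genes.

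The fibroblasts were not uniform. Clustering all members on 2000 variable genes gave 4 sub-clusters, whose leading genes included sterol genes, Krtdap and pancreatic enzymes that differed between the libraries, so their sizes are not compared. A clustering without genes past 1.5-fold between the libraries and without markers of acinar, endocrine and erythroid cells, added after the values had been seen, gave 5. Sub-cluster 1 led with Dmkn, Fst, an inhibitor of activins, Stmn4, Hspb1, Chrdl1, a BMP antagonist, Tgfb2, Pi16 and Ly6a. In it Stmn4 stood at 96.8 CPM beside 6.51 CPM in the other members, Pi16 at 116 beside 25.6 CPM and Ly6a at 144 beside 35.1 CPM. It held 78 knockout members, or 24.4% (19.8 to 29.5), and 83 control members, or 41.5% (34.6 to 48.7). Since Pi16, Ly6a and Krtdap differ both between sub-clusters and between libraries, the share and the levels cannot be told apart in the averages over all members.

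Sub-cluster 0 held 107 knockout members (33.4%) and 66 control members (33.0%) and led with Serpine2, Ndrg2 and Fam110b. Sub-cluster 3 held 66 (20.6%, 16.3 to 25.5) and 22 (11%, 7.02 to 16.2), and led with Cenpa, Cyp26b1, an enzyme that breaks down retinoic acid, and Stmn2. Sub-cluster 2, with 62 and 28 members, led with haemoglobin genes, and sub-cluster 4, with 7 and 1, with the acinar and endocrine genes Prss3, Cela1 and Ppy.

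The differences between the libraries were read again within sub-clusters. In sub-cluster 1 the summed sterol genes stood at 1163 CPM in knockout and 2417 CPM in control cells (ratio 0.481, 0.435 to 0.531). In sub-cluster 0 the same sum stood at 629.6 and 1805 CPM (0.349), in sub-cluster 2 the ratio was 0.540 and in sub-cluster 3 it was 0.575. The sum was therefore lower in knockout cells of each of the 4 larger sub-clusters. Krtdap was lower in knockout cells of sub-cluster 1, at 297 and 614 CPM (0.485, 0.396 to 0.590), and of sub-cluster 0, at 59.5 and 198 CPM (0.2997). In sub-clusters 2 and 3 its ratio was 1.25 (0.741 to 2.21) and 0.875 (0.542 to 1.45). Thy1 was lower in sub-cluster 1 with a ratio of 0.208 (0.0990 to 0.397). Its ratio was 0.577 in sub-cluster 0 (0.220 to 1.497) and 0.560 in sub-cluster 2 (0.120 to 2.82), and sub-cluster 3 held 1 knockout and 4 control UMIs. Crabp1 was higher in sub-cluster 1 with a ratio of 4.34 (2.41 to 8.30), in sub-cluster 0 with 2.38 and in sub-cluster 3 with 10.6, from 2 control UMIs, and its ratio in sub-cluster 2 was 1.09 (0.620 to 2.01).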

How the data were processed

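The deposited files hold raw counts of UMIs per gene and barcode, made with Cell Ranger 3.0.0 per the file headers; Seurat, versions 2 and 3, GRCm38 and mm10 are named in the submitters' processing notes, and alignment settings are not stated there. Coordinates are GRCm38 from the GENCODE M21 annotation, and promoter windows are RefSeq. Barcodes were classed by the UMI limits given in the report with Python 3.11.15, NumPy 2.4.6 and SciPy 1.17.1, and counts were summed per library and class and scaled to 1000000. A gene was compared where it had at least 50 UMIs, with an exact conditional binomial 95% interval of the ratio; shares have Clopper-Pearson intervals and their ratio a Katz interval. A ratio of ratios has a log-normal interval. Leiden clustering used scanpy 1.11.5 on 20 components with 15 neighbours at resolution 0.5. Doublets were kept: Scrublet marked 24 of 3257 knockout and 22 of 2633 control barcodes, 3 and 1 of them members. Between the libraries, the 28 genes named were the 14 higher and 14 lower with the interval bound farthest from 1, leaving out haemoglobin, mitochondrial, ribosomal and sex-linked Xist, Tsix and Y genes, unnamed gene models and genes more than 5-fold higher in another cell class; 16 higher and 10 lower genes were named against the Osr2/Mfap4 cells. From each list the label's markers, the 3 genes with most UMIs and those past 1.5-fold could be named; Dpp4 and the leading genes of sub-clusters were chosen after their values were seen. The members and lists were chosen with earlier results of these data known. Some genes that the rules select are not reported here. The authors' table of cluster genes was not used. The interval calculation was tested on simulated data.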

Additional observations from a re-analysis of the deposited data

Results flagged for a closer look

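For 6 genes the knockout over control ratio lay past 1.5-fold in opposite directions in the fibroblasts and in the Osr2/Mfap4 cells, and the 95% interval of the ratio of the 2 ratios lay wholly past 1.5-fold. That interval covers counting error only, and the difference was not tested across animals. Ins2 stood at 1941 CPM in knockout and 396 CPM in control fibroblasts, against 64.2 and 391.9 CPM in Osr2/Mfap4 cells, a ratio of ratios of 29.96. Without the 13 knockout and 2 control members that hold at least 50 UMIs of acinar, endocrine, erythroid or ductal genes, Ins2 stood at 71.5 and 395 CPM in the fibroblasts, so that its direction turned round (ratio 0.181). Ins1 had a ratio of ratios of 8.50, and without those members it stood at 20.7 and 100.9 CPM (0.205).

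The acinar elastase genes Cela2a and Cela3b had ratios of ratios of 8.58 and 11.003. Cela3b stood at 157 CPM in knockout and 31.6 CPM in control fibroblasts, against 153 and 339 CPM in Osr2/Mfap4 cells, and its ratio in fibroblasts was 2.26 without the same members. Apoe, which carries lipids between cells, stood at 31.2 and 19.4 CPM in fibroblasts and at 33.5 and 133 CPM in Osr2/Mfap4 cells, a ratio of ratios of 6.39. Its ratio in fibroblasts was 1.61 with an interval that includes 1 (0.982 to 2.71), and in Osr2/Mfap4 cells 0.252 (0.177 to 0.352). Macrophages held 12899.8 and 14848 CPM of Apoe, and 13 macrophage markers summed to 17.5 CPM in knockout and 212 CPM in control Osr2/Mfap4 cells, against 19.7 and 16.2 CPM in fibroblasts; their part in the result was not tested. Clstn1, a calsyntenin, stood at 20.8 and 36.4 CPM in fibroblasts and at 28.4 and 15.3 CPM in Osr2/Mfap4 cells, a ratio of ratios of 0.307.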

How the results depend on the processing

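Each group is 1 library, so no library could be left out, and the spread between pancreata was not measured. No paired analysis was possible because each group is 1 library. The knockout over control ratio of the fibroblasts' share kept its direction wherever it was computed. It ranged from 1.21 to 1.31 of all barcodes and from 1.15 to 1.23 of non-cycling mesenchymal ones. It was not computed with choosing genes left out, so these ranges do not cover that choice, and without Cthrc1 it would be smaller than in all members. The counts of genes moved with the depth and the limits chosen. Genes at least 1.5-fold higher and lower in knockout fibroblasts numbered 160 and 150 with cells thinned to 2000 UMIs, 744 and 838 with a limit of 20 UMIs, and 46 and 50 with a limit of 200 UMIs. With the median-ratio scaling, which shifts all log2 ratios by 0.035, they numbered 328 and 294. Thinning and the UMI limits also change which genes are tested, so these counts are not shares. At 20 UMIs 8774 genes were tested, and 9.55% of them were lower. Genes at least 2-fold over and below the Osr2/Mfap4 cells numbered 65 and 13 after thinning, 270 and 72 at 20 UMIs, 56 and 15 at 200 UMIs, and 109 and 20 where the choosing sum only had to reach the opposing one. A collagen sum of 50 UMIs gave 15 below. Resolution 1 gave 10 sub-clusters.

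The alternatives by sub-cluster 1, without members rich in other cells' RNA and with choosing genes left out were added after seeing the data. The median log2 ratio of the sterol list stayed between -1.53 and -1.08, and that of the adventitial list between -0.40 and -0.10. Only some genes were followed one by one through these settings. Of those with at least 50 UMIs and past 1.5-fold in all members, 3 turned their direction. Stmn4 turned to a log2 ratio of 0.16 and Gas6 to -0.29 within sub-cluster 1, and Ly6a to 0.37 outside it. Among all genes past 1.5-fold in all members, further ones did not keep their direction within sub-cluster 1, outside it and after thinning. Genes short of 1.5-fold turned too, among them Postn to 0.27, Fn1 to 0.26 and Mfap5 to 0.07 outside sub-cluster 1, and Dpt to 0.05 after thinning. The cause was not tested. Genes with few UMIs, such as Chodl and Sfrp4, carry the widest intervals.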

Other observations

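Growth factors of the IGF family and imprinted genes were abundant in the fibroblasts and differed little between the libraries. Of 14 tested IGF ligands and binding proteins, 0 were at least 1.5-fold higher in knockout fibroblasts and 1 lower, Igfbp7, at 39.5 CPM in knockout and 67.2 CPM in control fibroblasts, near the 4.84% and 6.05% of all genes. Igf2, the fetal growth factor, stood at 1326 and 1665 CPM, and H19, the imprinted RNA beside it, at 5026 and 6418 CPM. Of 20 imprinted growth genes, 1 was higher, Nnat, and 0 lower, and Dlk1, a non-canonical Notch ligand, stood at 6284 and 7252 CPM. Cdkn1c, an imprinted inhibitor of the cell cycle, stood at 2236 and 3043 CPM.

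Among 28 tested genes of adhesion and the cell surface, 4 were at least 1.5-fold higher in knockout fibroblasts and 4 lower, which is a larger share in both directions than the 4.84% and 6.05% of all genes. The higher ones were Cd24a, Procr and the syndecans Sdc1 and Sdc4, with Sdc1 at 94.8 CPM in knockout and 54.2 CPM in control fibroblasts, and the lower ones were Thy1, Pdpn, Eng and the glypican Gpc6. Of 13 tested network and fibril-associated collagens, 1 was higher, Col23a1, and 1 lower, Col15a1, a basement membrane collagen, at 21.9 and 40.5 CPM, with a median log2 ratio of -0.35. Of 13 contractile genes, 0 were higher and 1 lower, Flna. Of 21 genes of S phase, 0 were higher and 2 lower, Mcm2 and Ccne2. Of 6 tested genes of MHC class I and interferon responses, 0 passed 1.5-fold in either direction.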
